A study of Bos taurus with 16 samples.

Results

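The genes described here encode collagens, laminins and matrix glycoproteins of the bovine corpus luteum, the temporary ovarian gland that makes progesterone. They were taken from the array by name: every spot that was no control and whose symbol was COL with a chain number (such as COL4A1), LAMA, LAMB or LAMC with a number, or FN1, SPARC, SPON1, LUM, DCN, BGN, FBN1, FMOD, POSTN, ELN, VCAN, NID1 or NID2. The symbol was the gene name in the scanner file or, where that gave none, the human symbol in the spot's description. This gave 26 genes with 1 spot each, out of 15208 probes. The gene name gave 23 of them, and the description gave COL11A2, LAMB3 and COL8A1. A further 21 spots resemble such genes by their description or by the RefSeq gene table but carry other names in the file, and they are given apart.

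RNA was measured in glands of Japanese Black cows, with 4 separate animals in each of 4 groups. The cyclic group was not pregnant and was sampled on cycle days 10-12, and the other groups were pregnant for 20-25, 40-45 or 150-160 days, with insemination as day 1. All samples were whole corpus luteum, labelled with 1 dye (Cy3) and hybridised to 1-colour oligonucleotide arrays with probes of 60 bases. A level below is the log2 processed signal of a spot minus the 75th percentile of its array, so that 0 is the level of a fairly bright spot, and levels of different spots were not set against each other. The share of probes well above background lay between 71.9% and 79.6% per array. Both slides of the study carried 2 arrays of every group, replicates 1 and 2 on the first and replicates 3 and 4 on the other. Position on the slide was tied to the group, and pregnant glands were older than cyclic ones, so neither position nor age of the gland can be told apart from pregnancy. In whole tissue, fewer cells of a type and less RNA per cell cannot be told apart. Each of the 7 markers of luteal steroidogenic cells on the array, among them STAR and CYP11A1, was well above background on 3 or more of 4 arrays in some group.

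The extracellular matrix of the corpus luteum is built from fibrillar collagens, which form the connective tissue between the cells, and from basement membranes, in which type IV collagen, laminins and nidogen lie under the endothelium of a very dense capillary bed and around luteal cells. Fibronectin and the matricellular proteins bind these networks to integrins on the cell surface, and small leucine-rich proteoglycans decorate collagen fibrils and regulate their thickness. Granulosa-derived luteal cells, endothelial cells, fibroblasts and pericytes all make matrix while the gland is built.

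Of the 26 genes, 24 were tested, which required a signal well above background on 3 or more of 4 arrays in some group. COL9A1, a chain of cartilage type IX collagen, never gave a signal well above background, and COL11A2 did so on at most 2 arrays of any group. At days 150-160 of pregnancy against cyclic glands, 9 of the 24 tested genes were called at an adjusted p under 0.05 (limma, Benjamini-Hochberg over all probes tested), which is 37.5%, against 7.98% of all probes tested. Of the 9 genes, 8 were lower and 1 was higher, against 3.32% of all probes lower and 4.66% higher. The members were chosen with earlier results of these data known, so the shares given here and below are descriptive and were not tested. The genes lower at days 150-160 were COL1A2, COL1A1, COL11A1, COL4A1, COL18A1, FN1, SPARC and SPON1, and the gene called higher was NID1. With quantile normalization 0 genes were called higher and 9 lower, COL10A1 joining the lower ones, and with normexp background correction 0 were higher and 6 lower. The median log2 difference over the 24 genes was -0.49, against 0.025 over all probes tested. Between days 150-160 and cyclic glands 8 of the 24 genes did not overlap. The share over all probes tested, in either direction, was 11.7%. Those 8 were the genes called lower, and call and separation rest on the same values. An unadjusted p under 0.05 was reached by 13 of the 24 genes, against 23.5% of all probes.

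**Figure D1:**
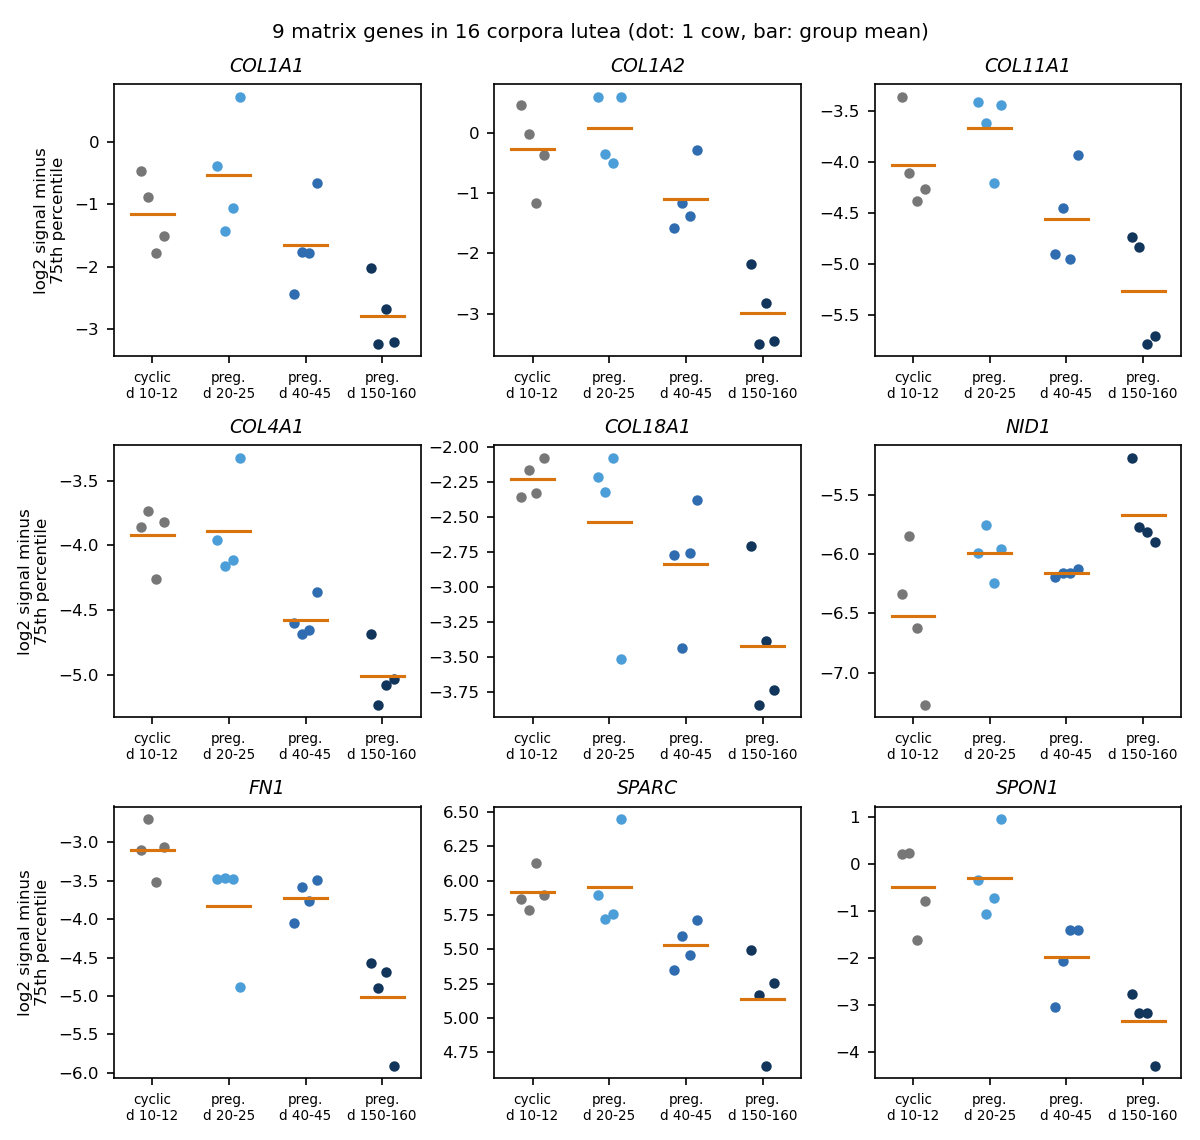
Level of the 9 matrix genes called at days 150-160 against cyclic glands, in each of 16 cows. The vertical axes give log2 signal minus the 75th percentile of the array, with a scale of its own for each gene; each dot is 1 cow and each bar the mean of 4 cows. In 8 panels every dot at days 150-160 lies under every cyclic dot; NID1 is the exception, with a cyclic cow at -5.85 above the lowest cow at days 150-160, at -5.90.

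Among fibrillar collagens, 3 of the 4 tested genes were lower at days 150-160 than in cyclic glands and 1 was not called. COL1A2 encodes the alpha 2 chain of type I collagen, the main fibrillar collagen of connective tissue. Its level was 0.46, -0.017, -1.17 and -0.37 in cyclic glands, 0.59, -0.36, -0.50 and 0.58 at days 20-25, -1.57, -1.16, -1.38 and -0.28 at days 40-45, and -2.18, -3.50, -2.83 and -3.46 at days 150-160. All 4 cows at days 150-160 lay below all 12 others. COL1A2 was 6.58-fold lower at days 150-160 than in cyclic glands, a log2 difference of -2.72 (95% interval -3.58 to -1.86, adjusted p = 0.00145). It was 8.40-fold lower than at days 20-25 (log2 difference -3.07, 95% interval -3.93 to -2.21, adjusted p = 0.00223).

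COL1A1 encodes the alpha 1 chain, which pairs with COL1A2 in type I collagen. Its level was -0.46, -0.88, -1.78 and -1.51 in cyclic glands, -0.39, -1.43, -1.05 and 0.73 at days 20-25, -2.45, -1.76, -1.77 and -0.65 at days 40-45, and -2.03, -3.25, -2.68 and -3.21 at days 150-160. The cows at days 150-160 lay below all cyclic cows and all cows at days 20-25, and overlapped those at days 40-45. The log2 difference at days 150-160 was -1.63 against cyclic glands (95% interval -2.64 to -0.62, adjusted p = 0.0472) and -2.26 against days 20-25 (95% interval -3.27 to -1.25, adjusted p = 0.0271). The call against cyclic glands was lost in 10 of 16 fits that left out 1 array, where adjusted p reached 0.121, and with slide as a block, where it was 0.0516. It is therefore the weaker of the calls on type I collagen. A second type I collagen spot, described below, was not called against cyclic glands.

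COL11A1 encodes a chain of type XI collagen, a minor collagen that sits inside fibrils. Its level was -3.36, -4.11, -4.38 and -4.26 in cyclic glands, -3.41, -3.61, -4.21 and -3.44 at days 20-25, -4.91, -4.45, -4.95 and -3.93 at days 40-45, and -4.74, -4.84, -5.79 and -5.71 at days 150-160. Days 150-160 lay below cyclic glands and days 20-25 in every cow. The log2 difference was -1.24 against cyclic glands (95% interval -1.91 to -0.58, adjusted p = 0.0255) and -1.60 against days 20-25 (95% interval -2.27 to -0.94, adjusted p = 0.0173). Type II collagen, the fibrillar collagen of cartilage, was not called: the COL2A1 spot differed by 0.15 between days 150-160 and cyclic glands on the log2 scale (95% interval -0.29 to 0.60, adjusted p = 0.713).

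The probes of these genes lie in different kinds of sequence, and 4 of the 14 collagen genes have a probe inside the triple helix. In that part of a collagen chain every 3 codons hold 1 glycine. The probes with this repeat are shown here in full because the sequence itself identifies a collagen helix; capitals mark the glycine codons, and letters run 5′ to 3′ as in the scanner files.
COL11A1: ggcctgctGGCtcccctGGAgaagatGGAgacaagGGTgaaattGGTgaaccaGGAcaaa
COL4A1: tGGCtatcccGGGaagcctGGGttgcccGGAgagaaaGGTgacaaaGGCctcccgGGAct
COL2A1: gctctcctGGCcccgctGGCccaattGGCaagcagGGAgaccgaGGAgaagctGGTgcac
COL6A2: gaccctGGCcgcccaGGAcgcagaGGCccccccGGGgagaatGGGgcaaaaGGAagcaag
Such repeats are alike in all collagens. The longest run that any of the 26 probes shared with another probe of the array was 16 bases out of 60. Probes were not compared with transcripts, so binding to RNA of other collagens was not tested. The COL1A2 and SPON1 probes have no such repeat, and their first 30 bases are given as the spots behind the largest differences.
COL1A2: agggaagtttaaaacccaaacttccaaagg
SPON1: caggccttctttatcgtgcttaatccaaat

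Of the 6 basement membrane genes tested, COL4A1 and COL18A1 were lower at days 150-160 than in cyclic glands and 3 were not called. The NID1 spot was called higher, a call that another nidogen spot did not share. COL4A1 encodes a chain of the type IV collagen network found in nearly all basement membranes. Its level was -3.86, -3.74, -4.26 and -3.82 in cyclic glands, -3.95, -4.16, -4.12 and -3.32 at days 20-25, -4.60, -4.68, -4.66 and -4.36 at days 40-45, and -4.69, -5.23, -5.08 and -5.03 at days 150-160. The cows fell into a pair of ranges that did not overlap, cyclic glands and days 20-25 above, days 40-45 and 150-160 below. COL4A1 was 2.13-fold lower at days 150-160 than in cyclic glands (log2 difference -1.09, 95% interval -1.49 to -0.69, adjusted p = 0.00363) and 2.17-fold lower than at days 20-25 (log2 difference -1.12, 95% interval -1.52 to -0.72, adjusted p = 0.00750). At days 40-45 the difference from cyclic glands was -0.66 on the log2 scale, without a call (95% interval -1.06 to -0.25, adjusted p = 0.106), and without replicate 4 of days 20-25 it was the single matrix gene called in that comparison.

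COL18A1 encodes type XVIII collagen, a vascular basement membrane collagen whose C-terminal fragment is endostatin. Its level was -2.35, -2.16, -2.32 and -2.08 in cyclic glands, -2.21, -2.32, -2.08 and -3.51 at days 20-25, -2.77, -3.43, -2.76 and -2.38 at days 40-45, and -2.71, -3.84, -3.38 and -3.73 at days 150-160. Cyclic glands were tightly grouped and lay above every gland of days 40-45 and 150-160. The log2 difference at days 150-160 was -1.19 against cyclic glands (95% interval -1.86 to -0.51, adjusted p = 0.0329), and -0.89 against days 20-25 without a call (adjusted p = 0.201). The 2 other network chains of the gene set, COL4A3 and COL4A4, were not called in any comparison. COL4A3 had its lowest levels at days 40-45, between -4.36 and -3.63, against -3.23 to -1.65 in cyclic glands, a log2 difference of -1.50 (95% interval -2.41 to -0.59, adjusted p = 0.101). LAMB3, a beta chain of epithelial laminin and the single laminin among the 26 genes, differed by 0.40 between days 150-160 and cyclic glands (95% interval 0.044 to 0.76, adjusted p = 0.161).

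NID1 encodes nidogen 1, which links laminin to type IV collagen. Its spot was dim, with levels of -6.34, -5.85, -6.62 and -7.27 in cyclic glands, -5.99, -5.76, -6.25 and -5.96 at days 20-25, -6.20, -6.16, -6.16 and -6.13 at days 40-45, and -5.19, -5.77, -5.82 and -5.90 at days 150-160. Cyclic glands spread most, and the highest cyclic cow lay within the range of days 150-160. NID1 was 1.80-fold higher at days 150-160 than in cyclic glands (log2 difference 0.85, 95% interval 0.34 to 1.36, adjusted p = 0.0427). The call was lost in 14 of 16 fits that left out 1 array, and with quantile normalization (adjusted p = 0.0508). A second nidogen spot, described below, gave the opposite direction.

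Adhesive and matricellular glycoproteins held the largest difference of the 24 genes: 3 of the 4 were lower at days 150-160 and POSTN was not called. SPON1 encodes spondin 1, a secreted adhesion protein first known from the floor plate of the spinal cord. Its level was 0.21, 0.24, -1.61 and -0.78 in cyclic glands, -0.34, -1.06, -0.71 and 0.96 at days 20-25, -3.04, -2.07, -1.40 and -1.40 at days 40-45, and -2.76, -3.17, -3.17 and -4.30 at days 150-160. Levels at days 150-160 lay below all cyclic glands and all glands of days 20-25, while the lowest gland of days 40-45 lay within their range. SPON1 was 7.29-fold lower at days 150-160 than in cyclic glands (log2 difference -2.87, 95% interval -3.98 to -1.75, adjusted p = 0.00442) and 8.35-fold lower than at days 20-25 (log2 difference -3.06, 95% interval -4.17 to -1.95, adjusted p = 0.00785). Its log2 difference at days 40-45 against cyclic glands was -1.49 and was not called (95% interval -2.61 to -0.38, adjusted p = 0.182).

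FN1 encodes fibronectin, an adhesive glycoprotein that binds integrins and collagen. Its level was -3.09, -2.69, -3.52 and -3.06 in cyclic glands, -3.47, -3.46, -3.47 and -4.89 at days 20-25, -4.04, -3.59, -3.77 and -3.49 at days 40-45, and -4.57, -4.90, -4.69 and -5.91 at days 150-160. Each gland of days 150-160 lay below each cyclic gland and each of days 40-45, and 1 gland of days 20-25, replicate 4, stood far below its 3 companions. FN1 was 3.79-fold lower at days 150-160 than in cyclic glands (log2 difference -1.92, 95% interval -2.64 to -1.20, adjusted p = 0.00388), and its difference of -1.19 from days 20-25 was not called (adjusted p = 0.0962).

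SPARC, also called osteonectin, is a collagen-binding protein that modulates how cells adhere to matrix. Its level was 5.87, 5.79, 6.13 and 5.90 in cyclic glands, 5.90, 5.72, 5.76 and 6.45 at days 20-25, 5.35, 5.60, 5.46 and 5.72 at days 40-45, and 5.49, 5.16, 4.65 and 5.25 at days 150-160. Cyclic glands lay above every gland of days 40-45 and days 150-160. SPARC was 1.72-fold lower at days 150-160 than in cyclic glands (log2 difference -0.78, 95% interval -1.19 to -0.37, adjusted p = 0.0224) and 1.76-fold lower than at days 20-25 (log2 difference -0.82, 95% interval -1.22 to -0.41, adjusted p = 0.0470). The call against days 20-25 was lost in 14 of 16 fits that left out 1 array. POSTN, encoding periostin, a matricellular protein of collagen-rich tissue, differed by -0.48 between days 150-160 and cyclic glands on the log2 scale (95% interval -1.08 to 0.13, adjusted p = 0.333).

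The remaining members were not called in any of the 6 comparisons. These were the 4 small leucine-rich proteoglycans, the 2 elastic fibre genes and the 4 other collagens tested. At days 150-160 against cyclic glands the proteoglycans differed by -0.50 for LUM (lumican; 95% interval -0.94 to -0.061, adjusted p = 0.156), -0.24 for DCN (decorin; 95% interval -0.84 to 0.36), and 0.070 for FMOD (fibromodulin; 95% interval -0.44 to 0.58). BGN (biglycan) had the same mean in both groups to within 0.0012, with a 95% interval of -0.47 to 0.47. The intervals of BGN, DCN and FMOD leave out the fitted COL1A1 difference of -1.63, whose own interval reached up to -0.62. Those of LUM and DCN take in the smaller called difference of SPARC given above. Differences between genes were not tested. FBN1, encoding fibrillin 1 of elastic microfibrils, differed by -0.68 (95% interval -1.24 to -0.13, adjusted p = 0.124), and by -1.03 against days 20-25 (adjusted p = 0.0625). ELN, encoding elastin, differed by -0.40 from cyclic glands (95% interval -0.90 to 0.091, adjusted p = 0.317).

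Among the other collagens the differences at days 150-160 against cyclic glands lay between -0.49 for COL10A1, the collagen of hypertrophic cartilage, and 0.53 for COL8A1, a short-chain collagen of vessels. COL10A1 was well above background on 2 of 4 arrays at days 150-160 and on 4 of 4 in cyclic glands. COL12A1, a fibril-associated collagen, varied too much between cows to be compared: its levels at days 150-160 were -0.54, 1.43, -2.69 and 1.44, against 0.65, 0.28, -0.96 and -0.84 in cyclic glands, and the 95% interval of the difference was -1.57 to 1.83. COL6A2, a chain of the beaded microfibrils of type VI collagen, differed by 0.14 (95% interval -0.52 to 0.80).

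**Figure D2:**
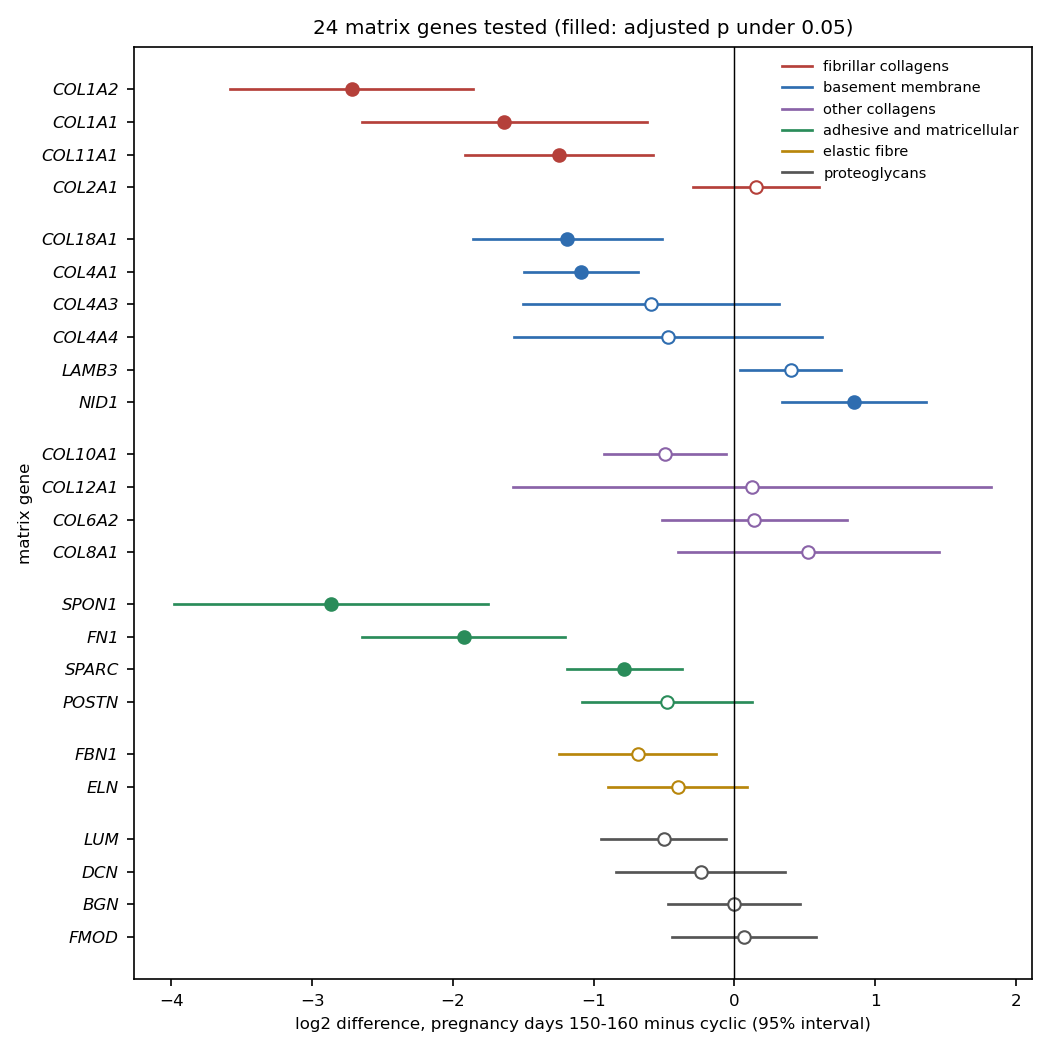
Log2 difference of days 150-160 of pregnancy minus cyclic glands for the 24 matrix genes tested, grouped by role. Points are the fitted differences, lines their 95% intervals and filled points the genes called. The called fibrillar and adhesive genes lie between -2.87 and -0.78. COL2A1 and POSTN, of the same roles and not called, lie at 0.15 and -0.48. The 4 small leucine-rich proteoglycans, none of them called, lie between -0.50 and 0.070.

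Between neighbouring stages, and between days 40-45 and cyclic glands, no matrix gene was called. At days 20-25 against cyclic glands limma called 0 of 24 genes and 0.293% of all probes, and 2 genes had an unadjusted p under 0.05, against 14.1% of all probes. No gene was without overlap between these groups, against 7.45% of all probes. At days 40-45 against cyclic glands limma called 0 genes and 1.23% of all probes, and 4 genes had an unadjusted p under 0.05, against 14.7% of all probes. There 5 genes did not overlap, COL10A1, COL18A1, COL4A1, COL4A3 and SPARC, all with the lower levels at days 40-45, against 9.7% of all probes. At days 40-45 against days 20-25 limma called 0 genes and 0.0335% of all probes, and 9 genes had an unadjusted p under 0.05, against 8.41% of all probes. At days 150-160 against days 40-45 it called 0 genes and 0.0419% of all probes, and 10 genes had an unadjusted p under 0.05, against 9.22% of all probes. In that step COL1A2, COL4A1, FBN1 and FN1 lay lower and NID1 higher in every gland of days 150-160, a separation found for 6.42% of all probes. For COL4A1 the nearest pair of glands was almost level, at -4.684 for days 40-45 and -4.686 for days 150-160.

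At days 150-160 against days 20-25, 6 of 24 genes were called, all lower: COL1A2, SPON1, COL1A1, COL11A1, COL4A1 and SPARC. That is 25%, against 1.57% of all probes tested called and 0.93% called lower; 12 genes had an unadjusted p under 0.05, against 13.9% of all probes. The glands of days 150-160 lay below all glands of days 20-25 for 8 genes, FBN1 and POSTN besides the 6 called, against 8.66% of all probes. The comparisons with cyclic glands and with days 20-25 share the arrays of days 150-160. The F test over the 4 groups called 5 of the 24 genes, COL1A2, SPON1, FN1, COL4A1 and COL11A1, against 3.85% of all probes tested.

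The group means of COL1A2, COL1A1, COL11A1, COL4A1, SPARC and SPON1 had the same order. They were highest at days 20-25, followed by cyclic glands, days 40-45 and days 150-160. Days 20-25 and cyclic glands were not called apart for any of these genes, and their order differed between the slides. On slide 1 days 20-25 minus cyclic glands was negative for all but COL11A1, with -0.93 for SPON1. On slide 2 it was positive for each of them, with 1.32 for SPON1. FN1 and COL18A1, also called lower at days 150-160, had their highest mean in cyclic glands. COL1A2 averaged -0.27 ± 0.69 in cyclic glands, 0.078 ± 0.59 at days 20-25, -1.10 ± 0.57 at days 40-45 and -2.99 ± 0.62 at days 150-160 (SD, n = 4 each). SPON1 averaged -0.48 ± 0.89 in cyclic glands, -0.29 ± 0.88 at days 20-25, -1.98 ± 0.77 at days 40-45 and -3.35 ± 0.66 at days 150-160 (SD, n = 4 each). In both genes the means of days 40-45 stood between the earlier stages and days 150-160, and the steps on either side of days 40-45 were not called. Over the 24 genes the log2 difference was negative for 22 at days 40-45 against days 20-25, with a median of -0.30, against 58.6% of all probes tested and a median of -0.051. In that comparison 5 genes did not overlap between the groups, COL10A1, COL4A1, COL4A3, SPARC and SPON1, against 8.88% of all probes tested.

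**Figure D3:**
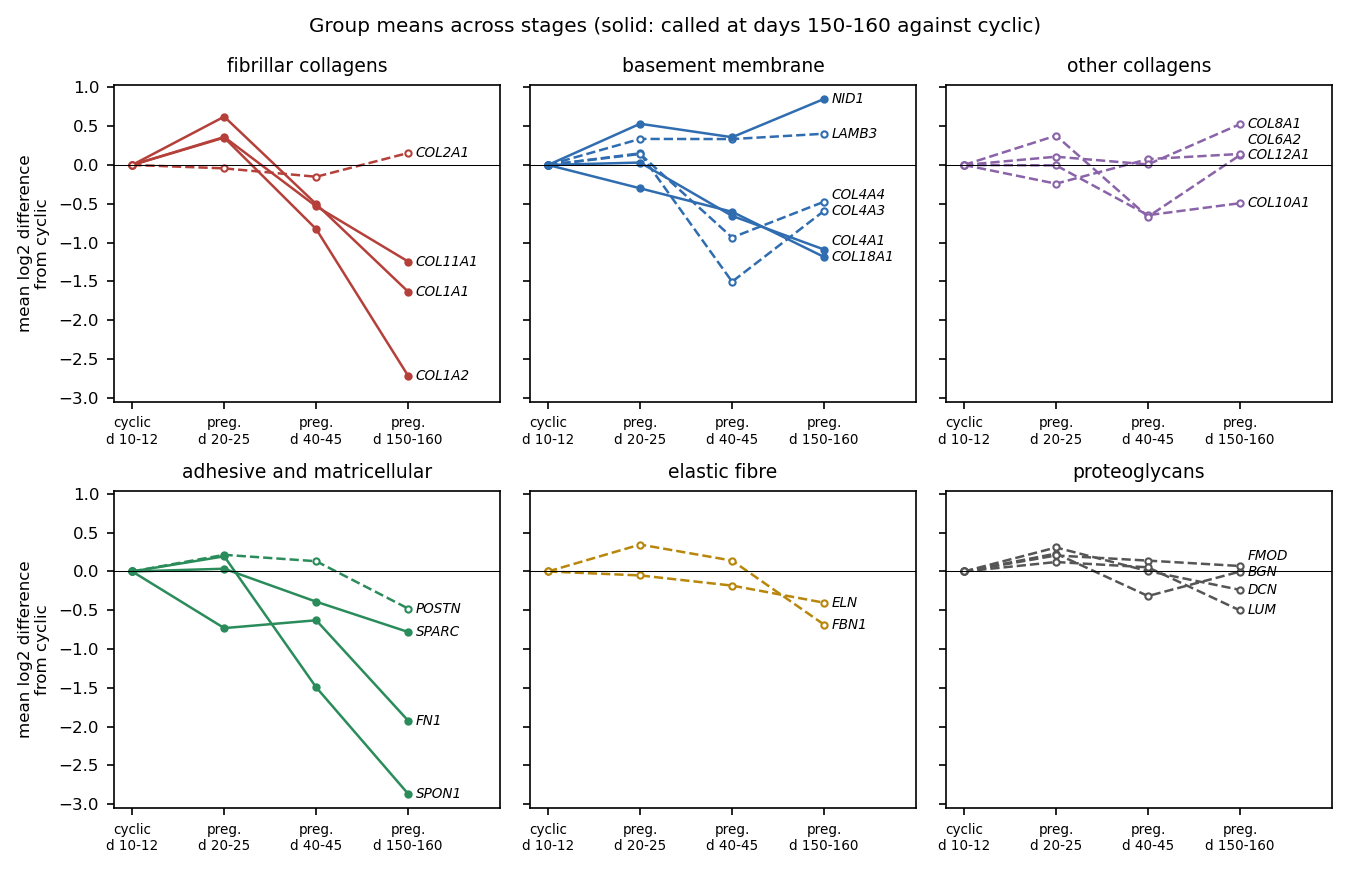
Mean log2 difference from cyclic glands at each stage for the 24 matrix genes tested, 1 panel per role, with n = 4 cows per stage. Solid lines are genes called at days 150-160; COL1A2 ends at -2.72 and SPON1 at -2.87, while NID1 ends at 0.85.

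Matrix genes varied between cows of a group more than the typical probe. The median SD of the 24 genes was 0.38 in cyclic glands, 0.42 at days 20-25, 0.27 at days 40-45 and 0.41 at days 150-160, against 0.30, 0.25, 0.21 and 0.31 over all probes tested. Single cows were high for many of them at once. At days 150-160 replicate 1 was the highest of its group for 18 of the 24 genes, and for all 8 of the genes called lower, while it was the highest for 35.6% of all probes tested. At days 40-45 replicate 4 was the highest for 15 of 24 and for all 8, against 34.7% of all probes. At days 20-25 replicate 4 was the highest for 15 of 24, against 44.3% of all probes, yet it was the lowest for 5, FN1 and COL18A1 among them. Other cows were low: cyclic replicate 3 was the lowest of its group for 13 of 24 genes and for 6 of the 8 called lower, against 19.7% of all probes, and replicate 1 of days 40-45 was the lowest for 12 of 24, against 28.1% of all probes. These counts describe the cows and carry no test, since the genes of a cow share its array.

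**Figure D4:**
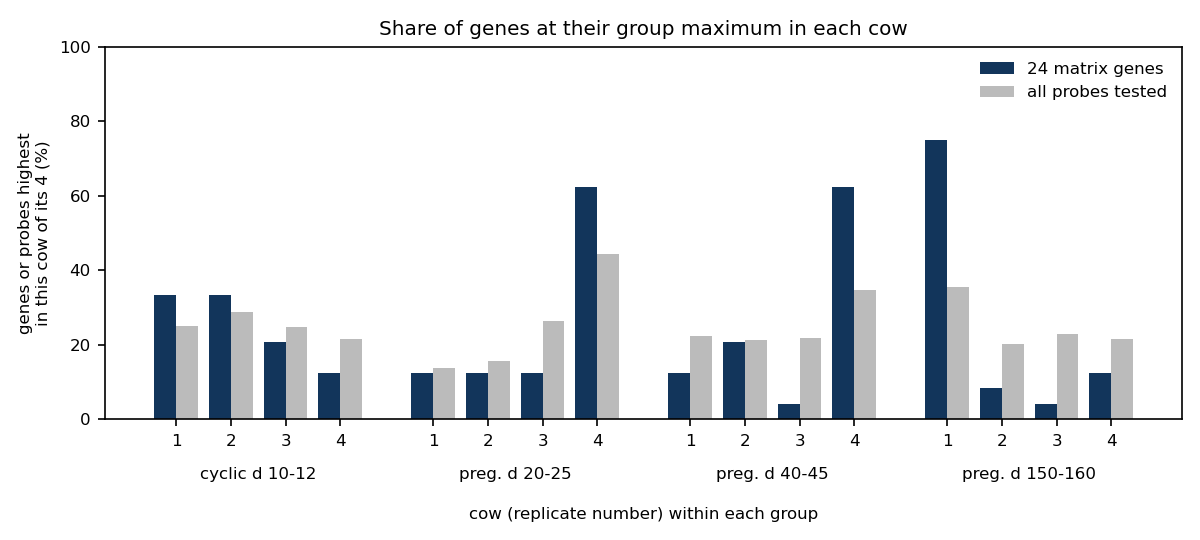
Percentage of the 24 matrix genes tested (dark) and of all probes tested (grey) for which each cow had the highest level of the 4 cows in its group. Replicate 1 of days 150-160, at 18 of 24 genes, and replicates 4 of days 20-25 and 40-45, at 15 of 24 each, stand out from the grey bars.

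Several calls lay near the threshold. Leaving out each array in turn gave between 4 and 9 genes called at days 150-160 against cyclic glands. There were 4 without replicate 3 of days 150-160, and 5 each without replicates 2 or 4 of days 150-160 and without replicates 1 or 4 of the cyclic group. COL1A2, SPON1, FN1 and COL4A1 were called in all 16 of these fits. The call was lost in 3 of the 16 for COL11A1, in 4 for SPARC and in 6 for COL18A1. Against days 20-25 there were between 3 and 7 calls, with 3 without replicate 1 of days 20-25 and without replicate 4 of days 150-160; COL1A2, SPON1 and COL4A1 were called in all 16. All 9 genes called against cyclic glands had the same sign on both slides, as did 18 of all 24 tested genes. The slides hold the arrays that gave the calls, so the shared sign is no separate test. Within slide 1 and within slide 2, with 2 cows per group, the log2 difference was -3.06 and -2.37 for COL1A2, -3.19 and -2.54 for SPON1, -1.84 and -2.01 for FN1, -1.16 and -1.02 for COL4A1, and -1.97 and -1.30 for COL1A1. It was -1.06 and -1.43 for COL11A1, -1.01 and -1.36 for COL18A1, -0.50 and -1.06 for SPARC, and 0.61 and 1.09 for NID1. With slide as a block 8 of the 24 genes were called, COL1A1 being the gene lost.

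Spots outside the gene set allow a second look at some of these genes. Of the 21 further spots 14 were tested, and at days 150-160 against cyclic glands 9 of the 14 were called lower and 0 higher, against 3.32% of all probes lower and 4.66% higher. A spot named FN, described as similar to fibronectin, had levels of 1.47, 1.84, 0.98 and 1.57 in cyclic glands, 0.94, 0.93, 1.00 and 1.58 at days 20-25, 0.42, 0.82, 0.70 and 1.11 at days 40-45, and -0.62, -0.31, -0.0002 and -1.02 at days 150-160. It was 3.87-fold lower at days 150-160 than in cyclic glands (log2 difference -1.95, 95% interval -2.47 to -1.44, adjusted p = 0.000341), next to -1.92 for the FN1 spot. The spots ranked some cows differently: replicate 4 of days 20-25 was the lowest of its group on the FN1 spot and the highest on the other, and replicate 1 of days 150-160 was the highest of its group on the FN1 spot alone. The level of the FN1 spot minus that of the other varied with an SD of 0.058 in cyclic glands, 1.02 at days 20-25, 0.083 at days 40-45 and 0.41 at days 150-160 (n = 4 each). The probes are shown as the pair behind the fibronectin values, the first in full and of the second its first 30 bases.
FN1: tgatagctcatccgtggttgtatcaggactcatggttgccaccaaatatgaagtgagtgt
FN: cgagagtaatatttccaaccagagaaacaa

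The nidogen spots disagreed. A spot described as similar to nidogen 1 precursor had levels of 0.45, 0.031, -0.36 and 0.070 in cyclic glands, 0.10, -0.11, 0.072 and 0.72 at days 20-25, -0.52, -0.60, -0.34 and -0.29 at days 40-45, and -0.77, -1.28, -0.94 and -1.60 at days 150-160. It was 2.29-fold lower at days 150-160 than in cyclic glands (log2 difference -1.19, 95% interval -1.66 to -0.73, adjusted p = 0.00442), and the groups did not overlap. The NID1 spot gave 0.85 in the same comparison (95% interval 0.34 to 1.36), so the 2 intervals lie on opposite sides of 0. A direction for nidogen 1 RNA is therefore not given here. The NID1 probe is printed in full and of the other spot its first 30 bases, since the pair carries the disagreement.
NID1: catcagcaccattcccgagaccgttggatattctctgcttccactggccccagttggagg
Nidogen-similar spot: ctgtggaaacaattgaaggtgcttattaac

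Type II collagen also has a second spot, named CB11 in the file and assigned to COL2A1 by the RefSeq gene table. Its levels were -1.52, -1.75, -2.94 and -2.52 in cyclic glands, -1.36, -2.09, -2.51 and -0.93 at days 20-25, -2.95, -2.64, -3.07 and -2.47 at days 40-45, and -2.94, -3.51, -3.81 and -3.94 at days 150-160. Here every gland of days 150-160 lay below every gland of days 20-25 and every cyclic gland, the nearest pair being almost level, with a log2 difference of -1.37 from cyclic glands (95% interval -2.14 to -0.60, adjusted p = 0.0324). The COL2A1 spot, at 0.15, did not share it. The second type I collagen spot, described as similar to pro alpha 1(I) collagen, differed by -0.41 between days 150-160 and cyclic glands without a call (95% interval -1.44 to 0.62, adjusted p = 0.660). Its interval takes in part of that of the COL1A1 spot. Within arrays, however, the COL1A1 spot minus this spot was 3.76 to 4.68 in cyclic glands and 2.62 to 3.19 at days 150-160 (n = 4 each). The second spot thus did not share the full fall of the COL1A1 spot. The sequences are given to show how far the spots of a pair are alike. Capitals mark glycine codons in the CB11 spot and, in the COL1A1 pair, the longest unbroken run that the probes share, 15 bases. The bases before that run are also alike in the COL1A1 pair, broken by gaps and mismatches.
CB11: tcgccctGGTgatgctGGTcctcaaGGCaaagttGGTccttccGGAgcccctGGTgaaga
COL1A1: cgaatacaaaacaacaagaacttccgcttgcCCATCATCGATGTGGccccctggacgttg
Similar to pro alpha 1(I): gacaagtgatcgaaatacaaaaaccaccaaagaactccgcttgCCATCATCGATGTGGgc

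**Figure D5:**
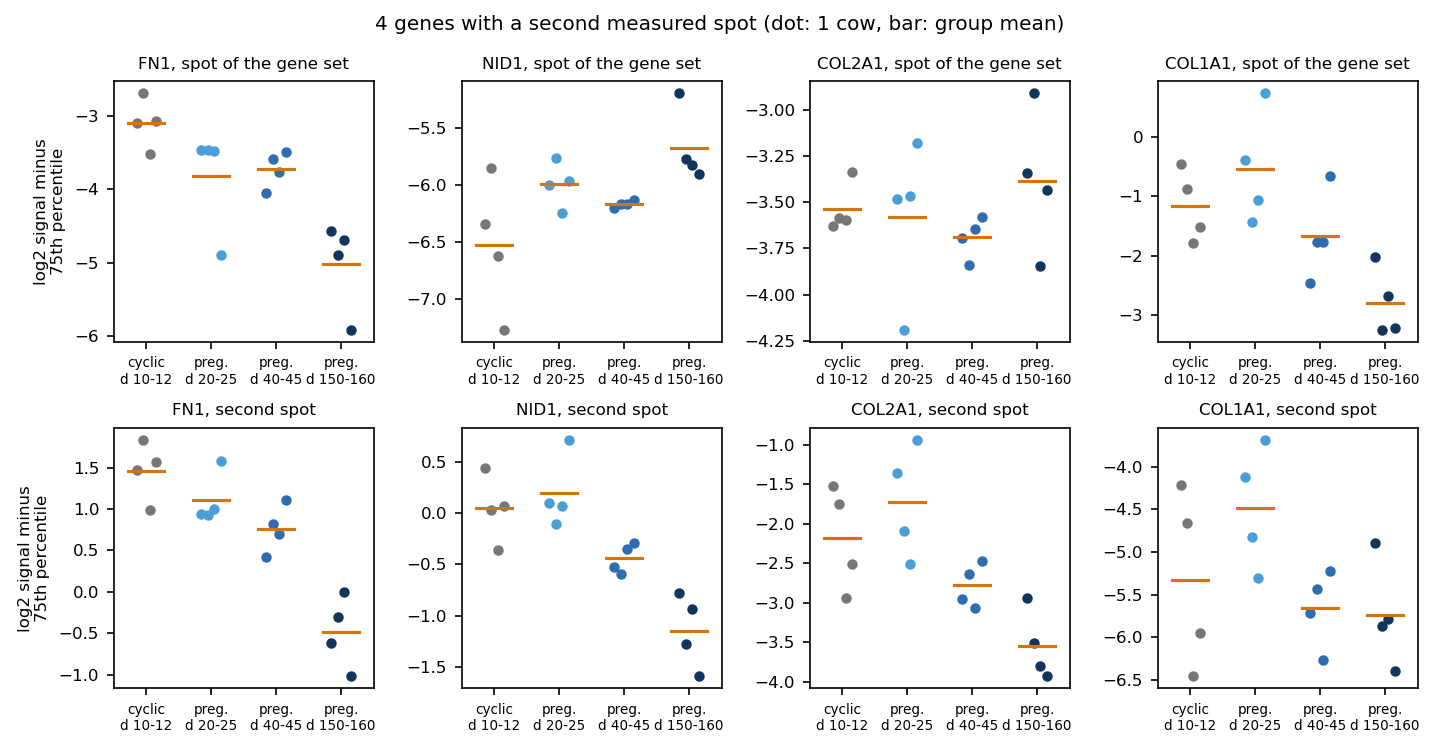
Levels of 4 genes on the spot of the gene set (top) and on the second tested spot (bottom), as log2 signal minus the 75th percentile of the array with a scale of its own for each panel; dots are cows and bars the means of 4 cows. The mean of days 150-160 is the lowest on both fibronectin spots, although on the FN1 spot replicate 4 of days 20-25, at -4.89, lies within the range of days 150-160. For NID1 the top spot differs by 0.85 and the bottom spot by -1.19 between days 150-160 and cyclic glands.

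Further collagens and proteoglycans were present under such other names. COL3A1, type III collagen of reticular fibres, had levels of 4.10, 3.25, 3.62 and 2.93 at days 150-160, against 4.89, 4.75, 4.54 and 4.25 in cyclic glands, a log2 difference of -1.13 (95% interval -1.77 to -0.49, adjusted p = 0.0326). VCAN, the large proteoglycan versican, had 2 spots that were lower by log2 differences of -2.50 (adjusted p = 0.0258) and -2.28 (adjusted p = 0.0396), and cyclic levels on the first ranged from -3.08 to 0.16. A spot similar to the alpha 3 chain of type VI collagen differed by -1.95 (adjusted p = 0.0164), while COL6A2 of the gene set was not called. COL4A6 differed by -0.92 (adjusted p = 0.0319) and a spot similar to laminin alpha 4, the laminin chain of endothelial basement membranes, by -0.86 (adjusted p = 0.0229). LAMA2, the laminin alpha chain of muscle, differed by 1.13 without a call (95% interval 0.30 to 1.96, adjusted p = 0.0912), and LAMB2 by 0.057 (95% interval -0.19 to 0.30).

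Genes that process, bind or accompany the matrix were counted from lists, against 7.98% of all probes called and an all-probe median of 0.025 at days 150-160 against cyclic glands. Of 14 tested genes for collagen modification and assembly, such as prolyl hydroxylases and lysyl oxidases, 0 were called at days 150-160 against cyclic glands, with a median log2 difference of -0.30. LOXL1, a lysyl oxidase linked to elastic fibres, was lower at days 150-160 than at days 20-25 by a log2 difference of -2.01 (95% interval -2.82 to -1.19, adjusted p = 0.0149). Of 14 matrix receptors 1 was higher and 2 were lower than in cyclic glands: BCAM, a laminin receptor, by 0.84 (adjusted p = 0.00549), CD44, the hyaluronan receptor, by -2.17 (adjusted p = 0.00661), and the integrin subunit ITGAV by -1.36 (adjusted p = 0.0229). Of 28 other matrix genes 2 were higher and 4 lower, with a median of 0.083: PRELP, a basement membrane anchoring proteoglycan, differed by 1.00 (adjusted p = 0.0159), SPP1, encoding osteopontin, by -2.54 (adjusted p = 0.0280), and the matricellular gene CCN1 by 2.40 (adjusted p = 0.0363). COMP, cartilage oligomeric matrix protein, was not well above background at days 150-160 on any array, and its level was at least 1.14-fold lower than in cyclic glands, taking the lowest signal well above background as the limit (adjusted p = 0.0363). Of 10 tested genes of TGF-beta signalling, a main inducer of collagen genes, 1 was called, a share near that of all probes: ENG, the endothelial co-receptor endoglin, was higher by 1.13 (adjusted p = 0.0147).

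Markers of cell types, among them cells that make matrix, were counted against the same 7.98% of all probes called. Of 7 markers of luteal steroidogenic cells, PTGFR was called higher and OXT lower at days 150-160 than in cyclic glands. Their summed signal relative to the 75th percentile lay between 440 and 498 at days 150-160, against 318 to 627 in cyclic glands. Of 5 fibroblast markers tested, THY1 was lower at days 150-160, at -0.41 ± 0.80 against 1.46 ± 0.39 in cyclic glands (SD, n = 4 each, log2 difference -1.87, adjusted p = 0.0156), and the other 4 were not called, among them PDGFRA at -0.51 (95% interval -1.08 to 0.072) and VIM at -0.21 (95% interval -0.71 to 0.28). Summed over the 5 markers, the signal relative to the 75th percentile lay between 7.34 and 12.7 at days 150-160 and between 9.49 and 16.6 in cyclic glands. Of 6 markers of smooth muscle and pericytes 0 were called, and their sum lay between 27.5 and 60.1 at days 150-160 and between 26.5 and 35.9 in cyclic glands. Of 13 endothelial markers 3 were higher at days 150-160, FLT1, TEK and ENG, and their sum lay between 33.0 and 59.3, against 20.1 to 32.7 in cyclic glands. Of 6 macrophage markers 2 were lower and 1 was higher, with sums of 1.14 to 2.10 at days 150-160 and 1.87 to 4.28 in cyclic glands. Of 6 markers of proliferating cells 3 were lower, with sums of 0.26 to 0.42 at days 150-160 and 0.72 to 2.28 in cyclic glands. None of the markers of luteal cells, fibroblasts, smooth muscle, endothelium, macrophages or proliferating cells was below background on all arrays. Their part in the differences of the matrix genes was not tested.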

How the data were processed

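Feature Extraction 9.5 produced the scanner files, per the submitters' processing notes. Each spot's processed signal, as deposited, is a linear intensity from which background was subtracted, without scaling between arrays, per the file headers. The value table the authors deposited is on a log2 scale and differs from the log2 processed signal by 1 constant per array, with a largest departure of 0.0046 and column medians between -3.18 and -2.98. It served as an alternative.

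Levels are log2 processed signal minus the array's 75th percentile. Per array 536 control spots were left out, and 220 spots with outlier flags, none of a matrix gene, were set to missing. Probes well above background on at least 3 of the 4 arrays of a group, 11941 of 15208, were tested with limma 3.58.1 in R 4.3.3 (lmFit, eBayes, all 16 arrays, group as term, 12 residual and 2.77 prior degrees of freedom). For tests involving days 150-160, and for the F test, 11940 had values. Adjustment was Benjamini-Hochberg over all probes tested, calls were made at an adjusted p under 0.05, and tests were two-sided. The number of arrays limits the precision. For other spots, names came from the scanner files and from a RefSeq gene table (ARS-UCD2.0, names only). Sequences are the probe sequences of the scanner files; probes not clearly in coding sequence are printed for 30 bases.

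Values are given in full for each member called and for COL1A2, COL4A1, FN1, SPARC and SPON1, and of lists up to 4 called genes. The members, the lists and the rule for names were chosen with earlier results of these data known. Alternatives were other normalizations, background corrections and filters, the value table, slide or replicate number as a block, each slide alone, the 2 groups alone, and leaving out each array. The script was tested on simulated data.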

Additional observations from a re-analysis of the deposited data

Results flagged for a closer look

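In 6 of the 96 groups of 4 cows formed by the 24 tested genes, 1 cow stood apart from its 3 companions by more than Dixon's 95% limit on the gap relative to the group's range. Chance flags about 1 group in 20. At days 20-25 replicate 4 had an FN1 level of -4.89, with the others between -3.47 and -3.46, and a COL18A1 level of -3.51, with the others between -2.32 and -2.08. At days 40-45 replicate 4 had a COL12A1 level of -0.12, with the others between -1.20 and -1.07, and replicate 2 had a BGN level of 3.86, with the others between 4.41 and 4.44. In cyclic glands replicate 2 had an ELN level of 0.54, with the others between -0.060 and 0.028, and replicate 4 had a COL2A1 level of -3.34, with the others between -3.63 and -3.59. The second fibronectin spot of replicate 4 of days 20-25 was the highest of its group, at 1.58.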

How the results depend on the processing

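The counts called at days 150-160 were 9 of 24 against cyclic glands, 6 against days 20-25 and 5 in the F test. They became 5 and 3 when only the 2 groups compared were fitted. Within slide 1 they were 3, 0 and 0 and within slide 2 they were 0, 0 and 0, in fits with 2 arrays per group that called 250 and 21 of all probes against cyclic glands. Leaving out 1 array gave 4 to 9 calls against cyclic glands, 3 to 7 against days 20-25 and 4 to 7 in the F test, and 0 to 1 for days 40-45 against cyclic glands. The other settings kept each count within 1.5 times, and no call changed sign under any setting. Replicate numbers were not taken to pair cows, since 9 of the 24 same-numbered pairs of arrays correlated above 0.1. All 24 correlations were positive, from 0.00086 to 0.29, and 9 of 16 arrays correlated best with their own number; same-numbered arrays share a slide. With the replicate block 8, 6 and 5 genes were called. The mean of all probes of a gene was not run, since the naming rule matched 1 spot per gene; the second spots found by description are given as values of their own. The NID1 spot and COL10A1 lie near background, which limits their precision.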
